A study of Mus musculus with 18 samples.

Results

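The 10 Notch pathway genes described here are the receptors *Notch1*, *Notch2*, *Notch3* and *Notch4*, the ligands *Jag1*, *Jag2* and *Dll1*, and the target genes *Hes1*, *Hey1* and *Heyl*. In the count tables they are NOTCH1, NOTCH2, NOTCH3, NOTCH4, JAG1, JAG2, DLL1, HES1, HEY1 and HEYL. They were picked by gene symbol from the 24333 symbols that the count tables of both cell lines hold, and all 10 were found. The study compared RNA from 168FARN and 67NR, both mouse mammary tumour cell lines, in 3 genotypes each: WT, *Kmt2c* KO and *Kmt2d* KO. *Kmt2c* and *Kmt2d* encode histone methyltransferases that act mainly at enhancers. Each knockout was a sorted pool and not a clone, made by transient transfection of Cas9 and a mix of guides to exon 1, so unedited cells can remain in it. The WT libraries of 168FARN carry a control guide in their column names, those of 67NR are named WT, and no other allele or agent is given for any group. Each of the 6 groups had 3 libraries of polyA RNA, and the methods define replicates as collections of the same cells 1 passage apart, so the p-values measure the spread between passages of 1 pool.

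Notch receptors are membrane proteins that bind Jagged or Delta-like ligands on neighbouring cells. Binding exposes the receptor to an ADAM protease and then to gamma-secretase, and the freed intracellular part joins the DNA-binding protein RBPJ and a Mastermind coactivator to switch on genes such as *Hes1* and the *Hey* family, which encode repressors. In the mammary gland the pathway is known for its part in the choice between luminal and basal cells, and *Notch4* was first found there as a site of integration of the mouse mammary tumour virus.

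Gene counts summed to 14359760 to 43427382 per library in 168FARN and to 40951775 to 79251530 in 67NR. Levels are given in CPM (counts per 1000000 counts of the library, after TMM scaling over all 18 libraries). A gene is called where its log2 fold change exceeds 0.6 in size and its adjusted p is below 0.1. Where all libraries of a group are said to lie above or below those of another, the share of all genes that separate so was not counted. Replicate 3 stood apart from replicates 1 and 2 in every group, so results are also given from fits that block on the replicate number, or without replicate 3, where that changed a call. Whether the edits in exon 1 change the amount of transcript was not tested, so the gene counts of *Kmt2c* and *Kmt2d* do not check the labels used here. The paper sequenced the targeted regions of the cell pools, not of these libraries, and found most reads mutant. The mutant share was lowest for *Kmt2c* in 67NR. It also reports less of the targeted proteins in the knockouts of both lines by immunoblot. *Kmt2c* lay at 48.0 to 98.5 CPM in 168FARN *Kmt2c* KO and 45.5 to 117 in WT libraries, and in 67NR at 82.9 to 92.2, above the 55.7 to 64.7 CPM of WT. *Kmt2d* lay at 139 to 299 CPM in 168FARN *Kmt2d* KO and 106 to 165 in WT libraries, and in 67NR at 91.0 to 141 and 84.7 to 114 CPM, so neither target was lower in its own knockout beyond the spread of the libraries. Of 6 epithelial markers, all 6 averaged over 1 CPM in 67NR WT cells and 1 did so in 168FARN WT cells, where *Epcam* and *Cldn4* had no count, while 5 of 5 mesenchymal markers did so in all groups.

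In WT cells of both lines *Jag1*, *Notch2* and *Hes1* had the most RNA per length of the 10 genes. Per kilobase of exon, the 67NR WT libraries held most *Hes1*, at 21.3 ± 5.37 CPM per kb (SD, n = 3), then *Jag1* at 11.2 ± 2.003 and *Notch2* at 10.2 ± 1.73, whose libraries overlapped each other. *Dll1* followed at 2.66 ± 0.271 CPM per kb, *Jag2* at 1.98 ± 0.441 and *Notch1* at 1.62 ± 0.140. In 168FARN WT cells *Jag1* led at 11.3 ± 4.74 CPM per kb, followed by *Notch2* at 5.76 ± 0.624 and *Hes1* at 3.19 ± 1.33. *Notch2* was thus the receptor with most RNA per length in the WT cells of both lines, and *Jag1* the ligand. *Heyl* had 1 count in all 18 libraries, so its level lay at or under the floor of 3 counts per group, which equals 0.0153 to 0.0474 CPM.

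**Figure D1:**
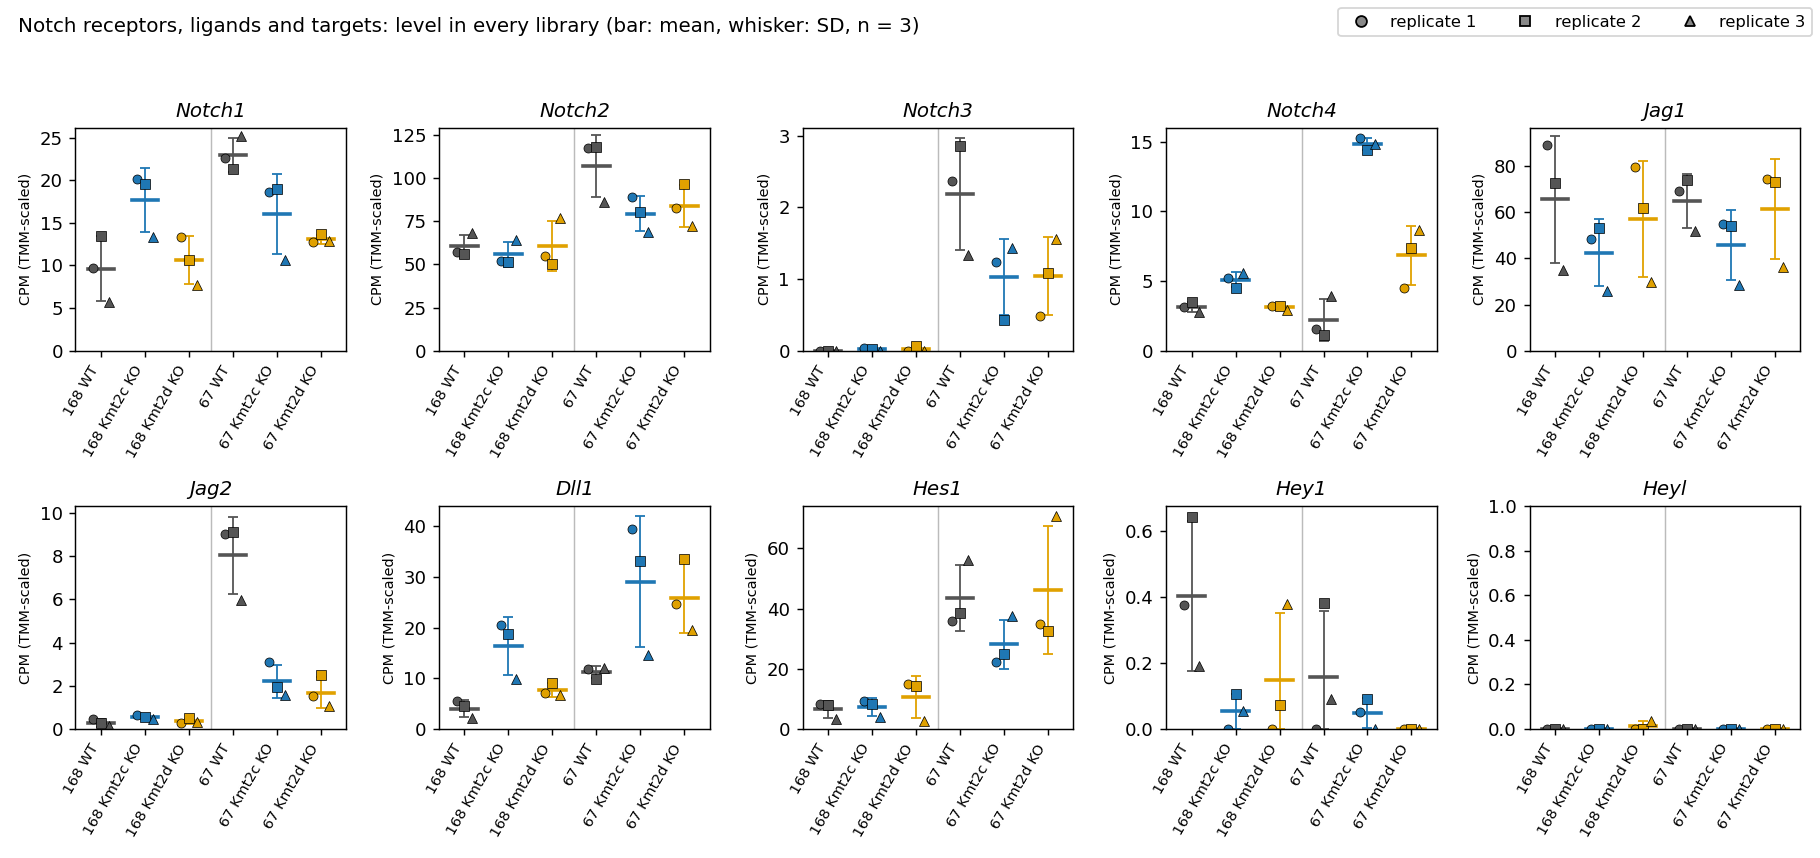
Level of each of the 10 genes in every library, in CPM scaled by TMM (vertical axis, linear, each panel with its own range), with the 3 genotypes of 168FARN left of the grey line and those of 67NR right of it. Symbols are the replicates, bars the mean and whiskers the SD (n = 3), with the lower whisker stopped at 0. *Notch4* is highest in the 67NR *Kmt2c* KO libraries (14.4 to 15.3 CPM), *Jag2* is highest in 67NR WT, and *Dll1* is higher in every knockout group than in the WT group of its line.

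The clearest changes were in 67NR, where *Notch4* and *Dll1* rose and *Jag2* fell in both knockouts. Both knockouts share the same WT libraries, and 13.0% of all genes tested were called higher in both and 10.4% lower in both. In the *Kmt2c* KO, 2 of the 8 members tested were called higher and 1 lower, when 17.9% of all genes tested were called higher and 17.4% lower. In the *Kmt2d* KO, 2 of 8 were called higher and 2 lower, against a background of 13.9% higher and 11.6% lower. The median log2 fold change over the members tested was -0.42 in the *Kmt2c* KO and -0.14 in the *Kmt2d* KO, beside -0.02 over all genes tested in each. With so many genes called in 67NR, a share of this size is not particular to the Notch genes. In 168FARN 0 of 8 members were called in either knockout with genotype alone in the model, where 0.359% of all genes were called in the *Kmt2c* KO and 0.286% in the *Kmt2d* KO. There, 3 members in the *Kmt2c* KO and 1 in the *Kmt2d* KO had an unadjusted p under 0.05, and DESeq2 called 2 and 0. Over all genes, 725 and 647 of 12253 had such a p, and DESeq2 called 278 and 229 of 16955. With the replicate block, 3 members were called higher and 1 lower in the *Kmt2c* KO, at a background of 3.66% higher and 3.57% lower, and 1 higher and 0 lower in the *Kmt2d* KO, at 2.73% and 3.17%. In these bulk samples, fewer cells expressing a gene and less RNA per cell cannot be told apart.

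The sequences before the starts of *Notch4*, *Dll1* and *Jag2* are shown because each of these 3 members was called with 1 sign in the 67NR knockouts. They are the 250 bases before each start in RefSeq, on GRCm38.p6, read 5′ to 3′ along the gene's strand. Both strands were searched for CACGCG, a site bound by HES proteins, and for TGGGAA, the core bound by RBPJ, and a match is in capitals. *Dll1* has 2 starts in the table, *Dll1* start A at chr17:15375824-15376073 and start B at chr17:15376933-15377182 on the minus strand. *Notch4* is read at chr17:34564045-34564294 on the plus strand and *Jag2* at chr12:112929496-112929745 on the minus strand.
Dll1 start A: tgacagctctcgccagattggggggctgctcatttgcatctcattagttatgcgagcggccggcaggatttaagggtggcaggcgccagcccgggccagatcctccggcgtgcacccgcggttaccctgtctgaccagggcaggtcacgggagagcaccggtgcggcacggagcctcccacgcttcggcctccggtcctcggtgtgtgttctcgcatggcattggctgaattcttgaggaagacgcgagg
Dll1 start B: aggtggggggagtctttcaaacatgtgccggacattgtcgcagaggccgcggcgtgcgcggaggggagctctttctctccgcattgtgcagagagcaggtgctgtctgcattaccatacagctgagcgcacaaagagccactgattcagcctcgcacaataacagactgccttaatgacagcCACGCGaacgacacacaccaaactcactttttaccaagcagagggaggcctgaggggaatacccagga
Notch4: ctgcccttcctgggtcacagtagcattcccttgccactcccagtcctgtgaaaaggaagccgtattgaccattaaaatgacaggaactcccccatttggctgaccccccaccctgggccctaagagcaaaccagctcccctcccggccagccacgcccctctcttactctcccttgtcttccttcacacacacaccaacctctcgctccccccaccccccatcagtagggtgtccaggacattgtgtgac
Jag2: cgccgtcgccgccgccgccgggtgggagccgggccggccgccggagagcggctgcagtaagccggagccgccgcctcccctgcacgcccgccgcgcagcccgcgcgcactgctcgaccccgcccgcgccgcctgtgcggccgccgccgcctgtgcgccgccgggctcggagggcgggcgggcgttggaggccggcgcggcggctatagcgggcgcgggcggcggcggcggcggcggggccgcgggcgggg
Only start B of *Dll1* holds a match among these 4 windows, CACGCG, which begins 68 bases before the start. Over all members, the table held windows for 7 of 10 (*Hes1*, *Hey1* and *Heyl* have none), 8 windows in all. CACGCG was in 3 of the 8, those of *Dll1* start B, *Jag1* and *Notch2*, beside 7.62% of 32851 windows of the same length. TGGGAA was in 0 of the 8, beside 21.6% of all windows. The *Jag2* window is 87.2% G or C, that of *Notch4* 58.4%, and those of *Dll1* 64% and 56%.

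*Notch4*, the receptor best known from endothelial cells, was the member that rose most in 67NR. In mm9 the gene spans chr17:34701213-34725448 on the plus strand. The 67NR WT libraries held 1.56, 1.15 and 3.93 CPM of it, the *Kmt2c* KO libraries 15.3, 14.4 and 14.9, and the *Kmt2d* KO libraries 4.50, 7.34 and 8.69. No knockout library overlapped the WT libraries, and every *Kmt2c* KO library lay above every *Kmt2d* KO library. The log2 fold change was 2.84 ± 0.46 (SE, n = 3 per group, adjusted p = 0.00137, edgeR's quasi-likelihood test) in the *Kmt2c* KO and 1.72 ± 0.44 (adjusted p = 0.0222, edgeR) in the *Kmt2d* KO, and both calls held in all 6 fits that left out 1 library. The third WT library was the highest of its group, and within replicate numbers the log2 ratio to WT was 3.29, 3.65 and 1.92 in the *Kmt2c* KO and 1.53, 2.68 and 1.15 in the *Kmt2d* KO.

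In 168FARN *Notch4* lay at 3.15, 3.48 and 2.77 CPM in WT, 5.20, 4.54 and 5.58 in *Kmt2c* KO and 3.20, 3.22 and 2.90 in *Kmt2d* KO libraries. The *Kmt2c* KO libraries lay above all others of the line, while the WT and *Kmt2d* KO libraries overlapped. With genotype alone, edgeR gave a log2 fold change of 0.71 ± 0.23 in the *Kmt2c* KO (adjusted p = 0.542), and 0.71 ± 0.20 (adjusted p = 0.0403) once the replicate number was blocked, while over all alternatives the adjusted p ran from 0.0403 to 1.00. The 6 endothelial markers summed to 4.84 to 5.50 CPM in 168FARN *Kmt2c* KO and 1.10 to 1.51 CPM in WT libraries, of which *Cdh5* made up 4.57 to 4.97 and 0.513 to 1.14 CPM. In 67NR they summed to 1.67 to 2.31 CPM in *Kmt2c* KO, 0.904 to 1.51 in *Kmt2d* KO and 0.551 to 0.735 in WT libraries. *Cdh5* made up 1.15 to 1.85 CPM in *Kmt2c* KO and 0.138 to 0.425 in WT there. The others moved both ways at low levels. In the 168FARN *Kmt2c* KO *Pecam1* averaged 0.155 CPM beside 0.0886 in WT, *Tek* 0.142 beside 0.225 and *Esam* 0.0761 beside 0.209. In the 67NR *Kmt2c* KO *Pecam1* averaged 0.202 beside 0.299, *Tek* 0.178 beside 0.0483 and *Esam* 0.0959 beside 0.0424. *Kdr* had no count in the WT groups, and *Pecam1* reached at most 0.500 CPM in any library. The part of this marker list in the change of *Notch4* was not tested.

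*Notch1*, the most widely studied receptor, had opposite signs in the *Kmt2c* KO of the lines. The gene spans chr2:26313423-26372183 of mm9 on the minus strand, its exons overlap those of 2 genes on the plus strand, and its counts are uncertain because no source says whether strand was used in counting. In 67NR the WT libraries held 22.6, 21.3 and 25.2 CPM, the *Kmt2c* KO libraries 18.6, 19.0 and 10.7, and the *Kmt2d* KO libraries 12.7, 13.7 and 12.9. Every knockout library was below every WT library. The fall in the *Kmt2d* KO was called, at a log2 fold change of -0.73 ± 0.23 (adjusted p = 0.0462, edgeR), and the value in the *Kmt2c* KO was not, at -0.43 ± 0.23 (adjusted p = 0.180, edgeR). The call in the *Kmt2d* KO was lost in 3 of 6 fits without 1 library: those without *Kmt2d* KO replicate 1 (adjusted p = 0.126), *Kmt2d* KO replicate 2 (0.101) and WT replicate 1 (0.103), all by edgeR.

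In 168FARN the *Notch1* values were 9.75, 13.4 and 5.73 CPM in WT, 20.2, 19.6 and 13.4 in *Kmt2c* KO and 13.4, 10.7 and 7.76 in *Kmt2d* KO libraries. The groups overlapped, as the third library of each was its lowest, but the *Kmt2c* KO library exceeded the WT library within each replicate number, by log2 ratios of 1.05, 0.54 and 1.22. The fitted log2 fold change was 0.88 ± 0.35 (adjusted p = 0.753, edgeR) without and 0.92 ± 0.17 (adjusted p = 0.00506, edgeR) with the replicate block, and the adjusted p over all alternatives ran from 6.13e-05 to 1.00.

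No change of *Notch2* from WT was called in either line, and *Notch3* was called in some fits of 67NR. *Notch2* had the most RNA per length of the 4 receptors in every library, and ran from 50.3 CPM in a 168FARN *Kmt2d* KO library to 118 CPM in a 67NR WT library. Its log2 fold changes in 67NR were -0.35 and -0.27 in the *Kmt2c* and *Kmt2d* KO, and in 168FARN -0.12 and 0.02. *Notch3*, whose RNA the smooth muscle of vessels is known for, shares exon sequence with a gene on the other strand, which leaves its counts uncertain as for *Notch1*. It had 2.38, 2.85 and 1.33 CPM in 67NR WT, 1.24, 0.428 and 1.43 in *Kmt2c* KO and 0.480, 1.09 and 1.56 in *Kmt2d* KO libraries. The groups overlapped through replicate 3, and the log2 fold changes of -1.004 and -1.003 (SE 0.57) in each knockout were not called (adjusted p = 0.213 and 0.254, edgeR). DESeq2 with the replicate block called the *Kmt2c* KO, at -1.08 (adjusted p = 0.0929), and not the *Kmt2d* KO, at -1.10 (adjusted p = 0.103). Without replicate 3 of every group they were called, at -1.54 (adjusted p = 0.00450, edgeR) and -1.66 (adjusted p = 0.00430, edgeR), while the highest adjusted p over the alternatives was 0.469 and 0.523. The fit without replicate 3 called 6126 and 4967 of 13851 genes tested. In 168FARN *Notch3* had 3 counts in all 9 libraries and was not tested.

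Among the ligands, *Dll1* was higher in every knockout library than in any WT library of the same line. This Delta-like ligand is encoded at chr17:15504318-15513836 of mm9 on the minus strand. A gene on the plus strand overlaps its exons, so its counts are uncertain in the same way as those of *Notch1*. The 67NR WT libraries held 11.8, 9.92 and 11.99 CPM, the *Kmt2c* KO libraries 39.3, 33.2 and 14.5, and the *Kmt2d* KO libraries 24.7, 33.4 and 19.5. All 6 knockout libraries lay above the WT libraries, and the third was the lowest of each knockout. The log2 fold change was 1.45 ± 0.35 (adjusted p = 0.0117, edgeR) in the *Kmt2c* KO and 1.28 ± 0.35 (adjusted p = 0.0291, edgeR) in the *Kmt2d* KO, with both calls kept in all 6 fits without 1 library.

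In 168FARN *Dll1* was at 5.47, 4.46 and 2.15 CPM in WT, 20.5, 18.7 and 9.87 in *Kmt2c* KO and 7.15, 9.16 and 6.74 in *Kmt2d* KO libraries. The 3 groups did not overlap and stood in the order WT, *Kmt2d* KO, *Kmt2c* KO. Within replicate numbers the log2 ratio to WT was 1.90, 2.07 and 2.20 in the *Kmt2c* KO and 0.38, 1.04 and 1.65 in the *Kmt2d* KO. With genotype alone in the model the *Kmt2c* KO value of 2.03 ± 0.41 had an adjusted p of 0.192 in edgeR, and the *Kmt2d* KO value of 0.95 ± 0.40 one of 0.898. With the replicate block the same values were 2.04 ± 0.21 (adjusted p = 9.61e-05, edgeR) and 1.04 ± 0.21 (adjusted p = 0.0121, edgeR). Over all alternatives the adjusted p ran from 9.41e-17 to 0.672 for the *Kmt2c* KO and from 0.000330 to 1.00 for the *Kmt2d* KO. The *Kmt2c* KO was also called without *Kmt2c* KO replicate 3, at 2.29 (adjusted p = 0.0893, edgeR).

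*Jag2*, a Jagged ligand typical of epithelia, fell in both 67NR knockouts. In mm9 it spans chr12:114146801-114167706, on the minus strand. The WT libraries held 9.04, 9.09 and 5.97 CPM, the *Kmt2c* KO libraries 3.08, 1.94 and 1.60, and the *Kmt2d* KO libraries 1.51, 2.48 and 1.05. Each WT library exceeded each knockout library, while the knockouts overlapped each other. The log2 fold change was -1.78 ± 0.39 (adjusted p = 0.00722, edgeR) in the *Kmt2c* KO and -2.17 ± 0.40 (adjusted p = 0.00455, edgeR) in the *Kmt2d* KO. All 6 epithelial markers together summed to 2501 to 3896 CPM in 67NR WT, 521 to 798 in *Kmt2c* KO and 914 to 1592 in *Kmt2d* KO libraries, with none of the 6 at 0. The 3 basal markers summed to 10.4 to 23.7 CPM in WT, 0.365 to 2.46 in *Kmt2c* KO and 0.920 to 5.97 in *Kmt2d* KO libraries, with *Krt5* at 0 in all. The 5 mesenchymal markers summed to 3236 to 6107 CPM in WT, 4079 to 5372 in *Kmt2c* KO and 3804 to 5455 in *Kmt2d* KO libraries, with none at 0. In the order WT, *Kmt2c* KO, *Kmt2d* KO, *Zeb1* averaged 5.17, 70.9 and 51.0 CPM and *Cdh2* 11.1, 194 and 150 CPM. *Vim* averaged 615, 3144 and 2665 CPM, *Twist1* 41.2, 85.3 and 77.6, and *Fn1* 4444, 1068 and 1427. The part of these markers in the changes of *Jag2*, *Notch4* and *Dll1* in 67NR was not tested. In 168FARN *Jag2* was near the limit of detection, with 5 to 20 counts per library, and no change was called. The counts there were 13, 9 and 5 in WT, 19, 20 and 17 in *Kmt2c* KO and 6, 7 and 8 in *Kmt2d* KO libraries. The log2 fold changes had the opposite sign to those in 67NR, at 0.97 ± 0.56 in the *Kmt2c* KO and 0.35 ± 0.59 in the *Kmt2d* KO.

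*Jag1*, the Jagged ligand of highest level, followed the replicate number more than the genotype. In 168FARN its WT libraries held 89.0, 72.8 and 35.2 CPM, the *Kmt2c* KO libraries 48.6, 53.0 and 26.0 and the *Kmt2d* KO libraries 79.8, 61.8 and 29.8. Replicate 3 was the lowest library in all 6 groups, and the *Kmt2c* KO was below WT within every replicate number of both lines. The log2 fold change in the *Kmt2c* KO was -0.62 ± 0.46 in 168FARN (adjusted p = 1.00, edgeR) and -0.42 ± 0.33 in 67NR (adjusted p = 0.381, edgeR). With the replicate block it was -0.58 ± 0.12 (adjusted p = 0.00942, edgeR) and -0.47 ± 0.14 (adjusted p = 0.0171, edgeR), both under the fold threshold. Without replicate 3 of every group the value in 168FARN was -0.66 and called (adjusted p = 0.00255, edgeR), the lowest over the alternatives being 6.71e-05 and the highest 1.00. The comparison without replicate 3 called 1780 of 12285 genes tested. In the 67NR *Kmt2d* KO the log2 fold change was 0.00 ± 0.33.

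**Figure D2:**
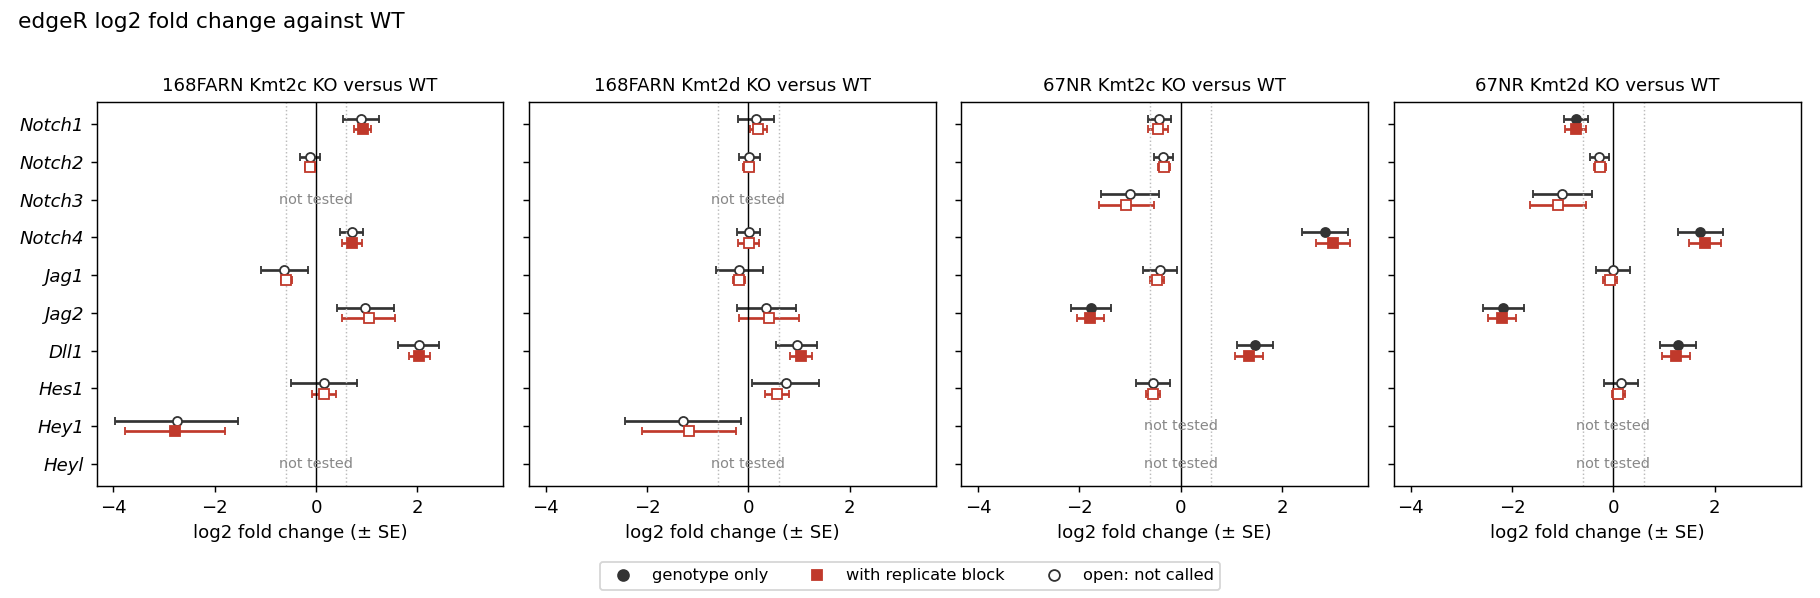
Log2 fold change of each gene against the WT cells of its line (horizontal axis, points with ± SE) from edgeR's quasi-likelihood test on 9 libraries per line, with genotype alone (black circles) or with the replicate block added (red squares). Filled symbols are called, open ones are not, dotted lines mark 0.6 on either side of 0, and genes under the count filter are marked not tested. The block narrows the errors most in 168FARN, where *Dll1*, *Notch1*, *Notch4* and *Hey1* are filled in red alone in the *Kmt2c* KO.

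Of the 3 target genes, *Hes1* alone had enough counts for edgeR's test in 67NR, and it was called in neither knockout. *Hes1*, a repressor gene and the best known direct target, was at 35.9, 38.5 and 56.0 CPM in 67NR WT, 22.3, 24.8 and 37.5 in *Kmt2c* KO and 35.0, 32.6 and 70.7 in *Kmt2d* KO libraries. The groups overlapped, but within replicate numbers the *Kmt2c* KO was below WT by log2 ratios of -0.69, -0.63 and -0.58. The fitted value was -0.54 ± 0.33 (adjusted p = 0.246, edgeR) and stayed under the fold threshold with the replicate block, at -0.55 ± 0.14 (adjusted p = 0.00564, edgeR). In the 67NR *Kmt2d* KO it was 0.16 ± 0.33. In 168FARN *Hes1* lay at 8.28, 7.82 and 3.38 CPM in WT, 9.40, 8.36 and 3.88 in *Kmt2c* KO and 14.9, 14.4 and 2.64 in *Kmt2d* KO libraries. There *Hes1* was higher than WT in replicates 1 and 2 of the *Kmt2d* KO and lower in replicate 3. Its log2 fold change was 0.73 ± 0.66 (adjusted p = 1.00, edgeR). Without replicate 3 of every group it was 0.90 and called (adjusted p = 0.00142, edgeR), as were 1346 of 12285 genes tested. Over all alternatives the adjusted p ran from 0.000127 to 1.00.

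*Hey1* was counted rarely. The 168FARN WT libraries held 11, 21 and 8 counts, the *Kmt2c* KO libraries 0, 4 and 2, and the *Kmt2d* KO libraries 0, 1 and 10. The *Kmt2c* KO libraries were all below the WT libraries, and the log2 fold change of -2.75 ± 1.21 was not called with genotype alone (adjusted p = 0.856, edgeR) but was with the block, at -2.79 ± 0.98 (adjusted p = 0.0940, edgeR, range over all alternatives 0.0163 to 1.00). In the *Kmt2d* KO the value was -1.29 ± 1.14 (adjusted p = 1.00, edgeR). Without replicate 3 of every group it was -3.98 and called (adjusted p = 0.0503, edgeR, lowest over all alternatives 0.0366), as were 1346 of 12285 genes tested. In 67NR the WT libraries held 0, 26 and 4 counts, the *Kmt2c* KO libraries 4, 6 and 0, and the *Kmt2d* KO libraries none. *Hey1* fell under the count filter there, and DESeq2 called it lower in the *Kmt2d* KO (adjusted p = 0.0866), while edgeR without the filter did not (adjusted p = 0.136).

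**Figure D3:**
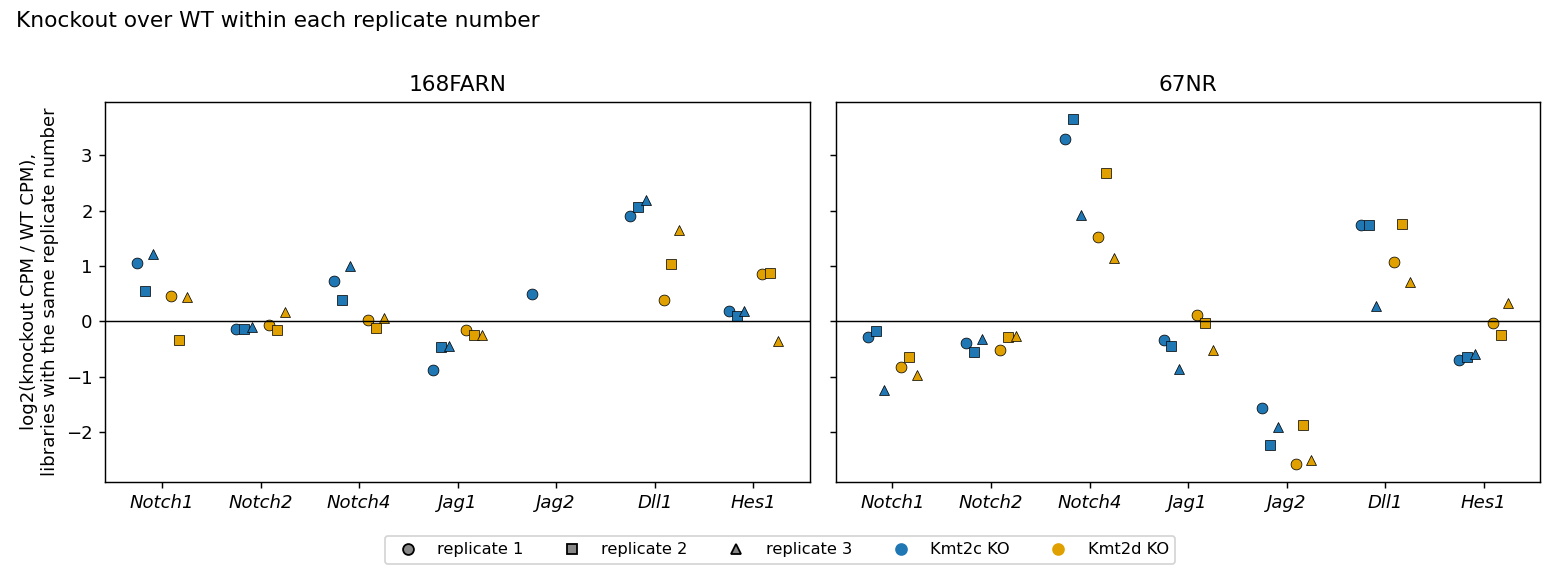
Log2 ratio of knockout to WT CPM between libraries with the same replicate number (vertical axis), for the 7 genes listed on the horizontal axis, in 168FARN (left) and 67NR (right), with blue for *Kmt2c* KO and yellow for *Kmt2d* KO. A point is drawn where both libraries hold at least 10 counts. *Dll1* is above 0 in all 12 ratios (0.28 to 2.20), *Jag2* is below 0 in all 6 ratios of 67NR, and *Notch1* in the *Kmt2c* KO is above 0 in 168FARN and below 0 in 67NR.

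Between the knockouts, no member was called by edgeR with genotype alone on all libraries, and some were with the replicate block. In 67NR 0 of 8 members were called between the *Kmt2c* and *Kmt2d* KO, when 1.41% of all genes were, with 1 member at an unadjusted p under 0.05 and 0 called by DESeq2. Over all genes, 1494 of 13665 had such a p, and DESeq2 called 573 of 17924. In 67NR the replicate block called 1 member higher in the *Kmt2c* KO (background 1.59%) and 1 lower (background 5.70%). These were *Notch4*, at a log2 difference of 1.12 ± 0.43 without the block (adjusted p = 0.382, edgeR) and 1.19 ± 0.31 with it (adjusted p = 0.0455, edgeR), and *Hes1*, at -0.70 ± 0.33 (adjusted p = 0.498, edgeR) and -0.65 ± 0.14 (adjusted p = 0.0176, edgeR). In 168FARN 0 of 8 members were called, at a background of 0.253%, with 2 at an unadjusted p under 0.05 and 1, *Notch4*, called by DESeq2. Among all genes there, 616 of 12253 had such a p, and DESeq2 called 221 of 16955. The block called 3 higher in the *Kmt2c* KO, at a background of 2.89%: *Notch1* by 0.72 ± 0.17 (adjusted p = 0.0248, edgeR), *Notch4* by 0.71 ± 0.21 (adjusted p = 0.0639, edgeR) and *Dll1* by 1.00 ± 0.20 (adjusted p = 0.0124, edgeR). Without replicate 3 of every group *Hes1* was called lower in the 168FARN *Kmt2c* KO than in the *Kmt2d* KO, at -0.75 (adjusted p = 0.00569, edgeR, range over all alternatives 0.00110 to 1.00). Of all 12285 genes tested in that fit, 508 were called lower. *Dll1* and *Notch4* in 168FARN, and *Notch4* in 67NR, did not overlap between the knockouts. With genotype alone their adjusted p was 0.789, 0.656 and 0.382 (edgeR), and the share of all genes that separate so was not counted.

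The WT lines differed in most members. Of 9 tested, 6 were higher in 67NR and 0 lower, when 22.3% of all genes tested were higher and 16.9% lower, and the median log2 difference of these 9 was 1.26, beside 0.03 over all genes tested. *Notch1* was higher by 1.26 ± 0.31 (adjusted p = 0.00437, edgeR), *Notch2* by 0.82 ± 0.20 (adjusted p = 0.00389, edgeR) and *Dll1* by 1.48 ± 0.40 (adjusted p = 0.00782, edgeR). The larger differences were those of *Hes1*, by 2.75 ± 0.57 (adjusted p = 0.00124, edgeR), and *Jag2*, by 4.86 ± 0.52 (adjusted p = 2.30e-06, edgeR), which had 27 counts in the 168FARN WT libraries together and 1644 in those of 67NR. *Notch3* had no count in 168FARN WT cells and was at least 75.9-fold higher in 67NR, against a floor of 3 counts over the group and with the same doubt about strand. *Jag1* was level, at -0.01 ± 0.42. *Notch4* was at -0.51 ± 0.37 (adjusted p = 0.308, edgeR), and was called lower in 67NR with the replicate block (background 21.5%), at -0.63 (adjusted p = 0.0642, edgeR), or without 67NR WT replicate 3, at -1.21 (adjusted p = 0.00402, edgeR). Its adjusted p over all alternatives ran from 0.000106 to 0.747. *Hey1* was at -1.32 ± 1.28 (adjusted p = 0.460, edgeR), on 30 counts in the 67NR WT and 40 in the 168FARN WT libraries. Without replicate 3 and with the block, 2 members were called lower in 67NR, *Notch4* and *Hey1*, as were 3560 of 13971 genes tested.

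The effect of a knockout also differed between the lines for some members, as tested by an interaction over all 18 libraries. For the *Kmt2c* KO, 1 of 9 members was called with a higher effect in 67NR and 2 with a lower one, at backgrounds of 8.49% and 7.55%. The effect on *Notch4* was higher in 67NR by 2.05 ± 0.52 (adjusted p = 0.0166, edgeR), that on *Jag2* lower by -2.84 ± 0.65 (adjusted p = 0.00896, edgeR) and that on *Notch1* lower by -1.39 ± 0.43 (adjusted p = 0.0474, edgeR). The call for *Notch1* was lost in 5 of 12 fits without 1 library: without 168FARN *Kmt2c* KO replicate 1 (adjusted p = 0.167), its replicate 2 (0.159), 168FARN WT replicate 1 (0.137), its replicate 3 (0.143) or 67NR *Kmt2c* KO replicate 3 (0.172), all by edgeR. The difference for *Hes1*, -0.78 ± 0.76, was called with the replicate block, at -0.79 (adjusted p = 0.0333, edgeR, background 34.6% in either direction, range over all alternatives 0.00168 to 0.869), and without replicate 3 of every group. The fit without replicate 3 called 5303 of 13971 genes tested. For *Dll1* the difference of -0.65 ± 0.55 was not called.

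For the *Kmt2d* KO, 1 of 9 members was called with a higher effect in 67NR and 1 with a lower one, at backgrounds of 6.68% and 3.92%. *Jag2* was lower by -2.58 ± 0.68 (adjusted p = 0.0303, edgeR), a call lost without 168FARN *Kmt2d* KO replicate 2 (-2.20, adjusted p = 0.112, edgeR). *Notch4* was higher by 1.65 ± 0.52 (adjusted p = 0.0718, edgeR), but this call was lost in 9 of 12 fits without 1 library, with adjusted p up to 0.185 without 67NR WT replicate 1. It was lost without any 1 of the 168FARN *Kmt2d* KO libraries, 168FARN WT replicates 1 or 2, 67NR *Kmt2d* KO replicates 2 or 3, and 67NR WT replicates 1 or 2. The difference for *Notch1*, -0.95 ± 0.43 (adjusted p = 0.242, edgeR), was called with the block, at -1.0004 (adjusted p = 0.0127, edgeR, background 28.4% in either direction, range over all alternatives 0.00809 to 0.578). Without replicate 3 of every group the differences for *Hes1*, at -0.99, and *Dll1*, at 0.74, were called too (adjusted p = 0.000337 and 0.0306, edgeR). That fit called 4539 of 13971 genes tested, beside 1471 of 13882 with all libraries.

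The wider pathway was followed in 62 further genes: other ligands, the proteases and gamma-secretase, sugar-adding enzymes, trafficking and ubiquitin factors, nuclear cofactors and other targets. In 67NR, 57 of them were tested, of which 7 rose and 12 fell in the *Kmt2c* KO and 4 rose and 8 fell in the *Kmt2d* KO. Over all genes tested 17.9% rose and 17.4% fell in the *Kmt2c* KO and 13.9% and 11.6% in the *Kmt2d* KO, and nothing particular to the list is read from its counts. The median log2 fold change over the tested genes was 0.02 and -0.04, beside -0.02 over all genes tested in each comparison. With the replicate block the number called in the *Kmt2d* KO was 20 in place of 12, at a background of 32.7%, and without 1 library it ran from 7 to 13. Both knockouts were compared with the same WT libraries, and 4 genes rose and 8 fell in both, beside 13.0% and 10.4% of all genes tested.

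Among the enzymes that act on the receptor, 2 of 6 sugar-adding enzymes and 1 of 10 cleavage genes fell in both 67NR knockouts. Of all genes tested 10.4% did so, and nothing about a role is read from these counts. *Lfng*, a Fringe enzyme that shifts which ligand a receptor responds to, fell by 2.34 and 1.54 on the log2 scale in the *Kmt2c* and *Kmt2d* KO, from 7.96 to 13.7 CPM in WT libraries to 1.47 to 2.25 and 2.20 to 5.37. *Poglut1*, which adds glucose to Notch repeats, fell by 1.03 and 0.76, and *Ncstn*, the substrate-binding subunit of gamma-secretase, by 0.69 and 0.61. *Dlk2*, a Delta-like protein without the usual receptor-binding domain, fell by 3.19 and 1.66. The WT and knockout libraries of *Ncstn* did not overlap, at 101 to 112 CPM in WT and 56.6 to 70.5 in both knockouts.

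Of 13 trafficking and ubiquitin genes, *Numbl* and *Mib1* rose and *Dtx4* and *Neurl3* fell in both knockouts. Over all genes tested 13.0% rose and 10.4% fell in both. *Numbl*, a relative of the Notch antagonist Numb, rose by 2.26 ± 0.26 (adjusted p = 0.000191, edgeR) and 1.71 ± 0.26 (adjusted p = 0.00152, edgeR), from 2.66 to 4.85 CPM in WT to 14.6 to 18.2 and 9.17 to 12.4. *Mib1*, the ubiquitin ligase that lets ligands be taken up, rose by 0.71 and 0.64. *Dtx4*, a Deltex ubiquitin ligase, fell by 1.21 and 1.36, and *Neurl3*, of the Neuralized family, by 1.27 and 0.89. Of 18 nuclear cofactors, *Maml3*, a Mastermind coactivator, rose by 1.03 and 0.61 and was the one called in both.

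The genes listed as other targets were split, and whether each responds to Notch in these cells was not tested. *Nrarp*, a target that dampens Notch signalling in turn, fell by 2.20 ± 0.32 (adjusted p = 0.000703, edgeR) in the *Kmt2c* KO and by 1.37 ± 0.31 (adjusted p = 0.0120, edgeR) in the *Kmt2d* KO. Its WT libraries held 16.5, 16.0 and 18.7 CPM, the *Kmt2c* KO libraries 3.73, 3.33 and 3.43, and the *Kmt2d* KO libraries 3.93, 5.25 and 9.77. *Hes6* fell by 1.63 and 1.24, while *Hes7*, known from the clock that forms somites, rose by 2.74 and 2.28 from 0.284 to 0.781 CPM in WT to 2.25 to 3.80 CPM in the knockouts. *Nrarp* had no count in 168FARN WT cells and was at least 594-fold higher in 67NR WT cells, against a floor of 3 counts over the group.

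**Figure D4:**
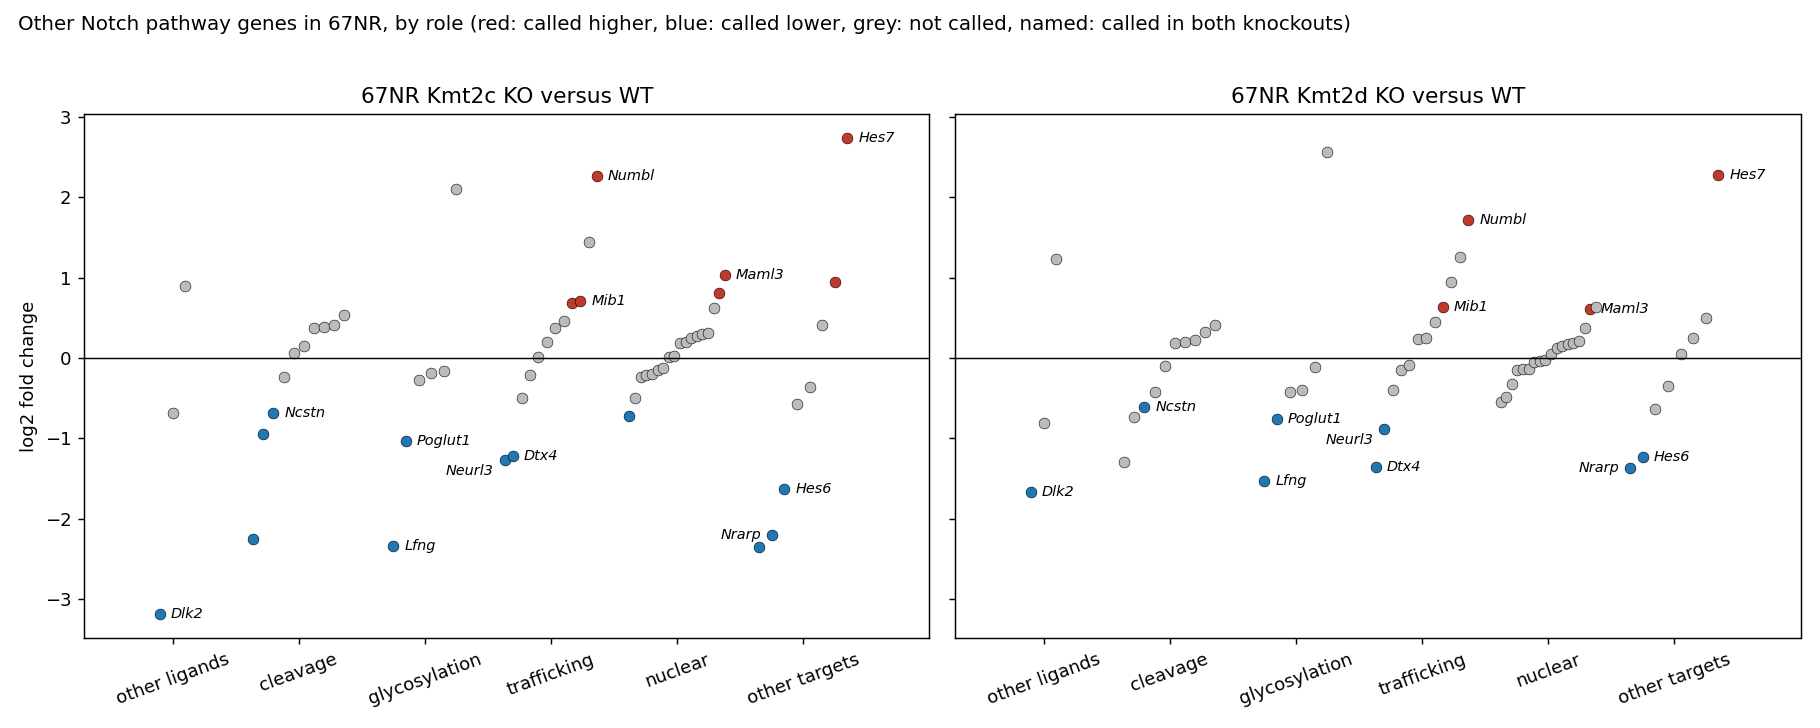
Log2 fold change in 67NR *Kmt2c* KO (left) and *Kmt2d* KO (right) against WT (vertical axis) for each tested gene of the wider pathway list, placed by role along the horizontal axis. Red points are called higher, blue lower and grey not called, and the named genes are the 4 that rose and 8 that fell in both knockouts. *Hes7* and *Numbl* are the highest called points of both panels and *Dlk2* the lowest.

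In 168FARN 52 of the 62 genes were tested and 0 were called in any of the 3 comparisons by edgeR with genotype alone. An unadjusted p under 0.05 was reached by 4 in the *Kmt2c* KO, 3 in the *Kmt2d* KO and 3 between the knockouts, and DESeq2 called 1 in each. Over all genes, 725, 647 and 616 of 12253 had such a p, and DESeq2 called 278, 229 and 221 of 16955. With the replicate block 3 genes of the list were called in the *Kmt2c* KO, 2 in the *Kmt2d* KO and 2 between the knockouts. This stands beside 7.23%, 5.90% and 5.33% of all genes tested, and the listed genes are named after their values were seen. *Neurl1b*, a ubiquitin ligase for ligands, was higher in the *Kmt2c* KO by 1.30 (adjusted p = 0.0481, edgeR), as was the corepressor gene *Tle2* by 0.66 (adjusted p = 0.0864, edgeR). The corepressor gene *Tle4* was lower in both knockouts, at -0.63 (adjusted p = 0.0340, edgeR) and -0.76 (adjusted p = 0.0212, edgeR). *Dtx4* was lower in the *Kmt2d* KO at -0.74 (adjusted p = 0.0192, edgeR) and higher in the *Kmt2c* KO than in the *Kmt2d* KO by 0.85 (adjusted p = 0.0102, edgeR), as was *Hes6* by 0.72 (adjusted p = 0.0496, edgeR). Between the 67NR knockouts 0 pathway genes were called, with 6 at an unadjusted p under 0.05 and 0 called by DESeq2. Over all genes these counts were 1494 of 13665 and 573 of 17924. There the block called *Dlk2* and *Nrarp* lower in the *Kmt2c* KO, at -1.65 (adjusted p = 0.00712, edgeR) and -0.76 (adjusted p = 0.0980, edgeR), beside 5.70% of all genes.

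Of 58 pathway genes tested between the lines, 17 were higher and 7 lower in 67NR WT than in 168FARN WT cells, beside 22.3% and 16.9% of all genes tested. With *Kmt2c* lost, the genes with a knockout effect called lower in 67NR, as 7.55% of all genes tested were, included *Ncstn*, *Lfng*, *Dtx4* and *Hes6*, by -0.66, -1.95, -1.40 and -2.21. With *Kmt2d* lost, it was called lower for 2 genes, *Ncstn* and *Lfng*, by -0.92 and -2.27, at a background of 3.92%. No gene of the list was called with a higher effect in 67NR in either knockout. These genes are named after their values were seen. For the *Kmt2d* KO, 15 genes were called with the replicate block, at a background of 28.4%, and 1 to 3 without 1 library.

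The genes whose log2(CPM + 1) followed *Notch4* most closely over the 9 libraries of 67NR were *Gm11532* and *Nab2* (Pearson r = 0.986 each), and for *Jag2* they were *Lmtk2* and *Dtx4* (r = 0.986 each). For *Dll1* they were *Tldc2* and *Nat6*, at r = 0.993 and 0.988. These values describe 9 libraries that share genotypes and replicate numbers, and no test was made on them.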

How the data were processed

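RNA-seq counts of 18 libraries (3 per genotype and line) were analysed. The authors aligned reads of strand-specific mRNA libraries to mm9 with STAR in the VIPER pipeline and deposited whole-number read counts per gene symbol, without normalization. The counter and its strand setting are not given in the sources used here. Totals per library, given in the results, set the precision, and 0 columns were left unmapped.

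Counts were tested with edgeR 4.0.16 in R 4.3.3 (quasi-likelihood test, TMM, edgeR's filter on low counts by group, robust dispersions). Each line's 9 libraries were fitted with genotype as the only factor (12253 genes in 168FARN, 13665 in 67NR). All 18 libraries were fitted in 6 groups (13882 genes) for the WT lines and for the difference of knockout effects between lines. Benjamini-Hochberg adjustment ran over all genes tested. The SE of a log2 fold change is its size over the square root of the F statistic. Scripts were tested on simulated counts. Levels per length used the exon length of an mm9 annotation (Ensembl genes, GENCODE vM1), which also gave positions. Promoter windows came from RefSeq on GRCm38.p6.

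Of the replicate numbers, only replicate 3 was clearly set apart. Between libraries with the same number, deviations from the group mean correlated by 0.65 to 0.90 (168FARN) and 0.35 to 0.72 (67NR). For replicate 3 alone the range was 0.86 to 0.90 and 0.54 to 0.72. Between different numbers the correlations ran from -0.82 to 0.73 and from -0.60 to 0.52, so replicates 1 and 2 are not well separated. A pairing of libraries by number 1 or 2 is thus not established. For its heatmaps the study removed collection time as a batch. No pair of replicates agreed within sampling noise (lowest chi-square per degree of freedom 12.0).

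Alternatives were DESeq2 1.42.0 and its size factors, no filter, the replicate block, an adjusted p below 0.05 without a fold threshold, fits of the compared groups alone, total-count scaling and each library left out. After seeing the data, DESeq2 with the block and fits without replicate 3 were added. All 10 members are named. Pathway genes are named when called in the same direction in both knockouts of a line (at most 4 per role), and like patterns for members called in both 67NR knockouts. The members and lists were chosen with earlier results of these data known. A further result of the wider pathway list is not reported here.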

Additional observations from a re-analysis of the deposited data

Results flagged for a closer look

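The members below had a knockout effect that differed between 67NR and 168FARN by the interaction test of edgeR, given as the log2 effect in 67NR minus that in 168FARN. For the *Kmt2c* KO the difference was 2.05 for *Notch4*, -2.84 for *Jag2* and -1.39 for *Notch1*. For the *Kmt2d* KO it was 1.65 for *Notch4* and -2.58 for *Jag2*. *Jag2* had 56 counts or fewer per group of 168FARN, so its effect there is known poorly. That effect, 0.97 in the *Kmt2c* KO and 0.35 in the *Kmt2d* KO, is part of the difference given for *Jag2*. The lines were sequenced to different depths and counted in separate tables, and this cannot be told apart from the line. Groups of 3 libraries are too small for a check of single libraries that lie far from the rest.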

How the results depend on the processing

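No called log2 fold change of a member changed sign under any alternative. Of the member values recomputed, 1115 kept their side of the threshold, 69 were newly called and 19 lost the call. The replicate block changed which members were called in 168FARN and between the knockouts, as given in the results, and the calls of *Hes1* and *Notch1* between lines and of *Notch4* between the WT lines, and it changed no other call of a member.

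In the 168FARN *Kmt2c* KO, 0 members were called with genotype alone, 2 by DESeq2, 4 with the replicate block, 4 by DESeq2 with the block, 4 without replicate 3 and 4 without replicate 3 but with the block. Leaving out 1 library gave 0 to 1, the 1 being *Dll1* without *Kmt2c* KO replicate 3. In the 168FARN *Kmt2d* KO 0 became 1, 1, 3 and 3 under the last 4 of these. Between the 168FARN knockouts 0 became 1 by DESeq2 and then 3, 3, 3 and 3, and between the 67NR knockouts 0 became 2, 2, 1 and 1 under the last 4. For the difference of the *Kmt2d* KO effect between lines, 2 became 1 at an adjusted p under 0.05, 5 without replicate 3 and 5 with the block too, and 0 to 2 without 1 library, the 0 being without 168FARN *Kmt2d* KO replicate 2. Calls over all genes, given next, also rose in the settings where members rose, so nothing particular to the members is read from these counts. The cause was not tested.

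Over all genes, the number called in 168FARN was 44, 35 and 31 for *Kmt2c* KO, *Kmt2d* KO and their difference, 886, 723 and 653 with the block, and 278, 229 and 221 by DESeq2. With fits on the compared groups alone it was 4, 0 and 2. In the same order it was 903, 764 and 682 of 16955 genes by DESeq2 with the block. Without replicate 3 it was 1780, 1346 and 1141 of 12285 genes, and with the block too 1814, 1390 and 1186. Between the 67NR knockouts it was 193, and 996 with the block. There it was 1192 by DESeq2 with the block, 1743 without replicate 3 and 1660 with the block too. For the difference of the *Kmt2d* KO effect between lines it was 1471, and 1013 at an adjusted p under 0.05. Without replicate 3 that number was 4539, and 4482 with the block too. Scaling by total counts moved the mean CPM of *Notch1* in 67NR *Kmt2d* KO to 12.5 and of *Notch4* in 67NR *Kmt2c* KO to 16.1, by more than 1 SD. *Notch3* and *Heyl* had too few counts in 168FARN to be tested, and *Jag2* and *Hey1*, at 21 counts or fewer per library, give wide errors there. DESeq2 with the block also called *Notch3* lower in the 67NR *Kmt2c* KO.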
